A study of Mus musculus with 3 samples.

Results

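Lipid droplets are the stores in which cells keep triglyceride and cholesterol ester, and the 10 genes described here build, coat and empty them. They are Dgat1, Dgat2 and Soat1 (esterifying enzymes), Plin2, Plin3 and Hilpda (droplet proteins) and Pnpla2, Abhd5, Mgll and Nceh1 (lipolysis). They were chosen by name, as probes whose RefSeq accession belongs to one of these symbols. All 10 were on the array, with 16 probes among them, and all 10 were among the 13182 genes with a measured probe, of 20660 named genes on the array.

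RNA came from bone marrow-derived macrophages of C57BL/6J mice, primary cells grown from marrow with medium of L929 fibroblasts as the source of CSF-1. Per the labels, the cells were wild type, were kept in serum at a low concentration, and were either left untreated or given adiponectin, a hormone of fat cells, at 12 µg/ml for 18 h. Each of 3 two-colour arrays, called biological replicates in the labels, held 1 treated and 1 untreated RNA. Replicates 1 and 3 carried the treated RNA in Cy3, and replicate 2 carried it in Cy5. The labels do not say how many mice gave the cells or whether a replicate is a separate mouse.

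Triglyceride is made by adding a fatty acid to diacylglycerol, a step that either of the unrelated enzymes DGAT1 and DGAT2 can take, and cholesterol is esterified by SOAT1. Triglyceride is cut back by the lipase ATGL (the product of Pnpla2), which ABHD5 activates and HILPDA inhibits, and monoglyceride is then cut by the lipase encoded by Mgll. Macrophages that take up much lipid fill with such droplets and become foam cells, in which PLIN2 is the main coat protein and NCEH1 hydrolyses cholesterol ester.

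The genes moved in different directions. Dgat2 and Hilpda were several-fold higher in treated macrophages, Plin2 was lower, and the remaining members changed by less than 2-fold. The 2 promoters shown here belong to the droplet proteins that changed most in opposite directions, Hilpda and Plin2. Each is the 250 bases before a RefSeq start on build GRCm38.p6, with matches to 4 motifs in capitals: ACGTG (the core of the hypoxia response element), AGGTCA (bound by nuclear receptors), TGANTCA (AP-1) and the NF-kB motif, on both strands. The third line is a stretch of 25 bases around ACGTG before the other RefSeq start of Hilpda.
Hilpda, chr6:29272238-29272487, plus strand: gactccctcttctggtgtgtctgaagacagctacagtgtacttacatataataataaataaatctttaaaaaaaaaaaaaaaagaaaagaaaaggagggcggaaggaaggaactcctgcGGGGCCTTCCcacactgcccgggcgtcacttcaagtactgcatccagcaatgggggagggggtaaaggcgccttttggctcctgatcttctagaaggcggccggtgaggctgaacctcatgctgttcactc
Plin2, chr4:86670060-86670309, minus strand: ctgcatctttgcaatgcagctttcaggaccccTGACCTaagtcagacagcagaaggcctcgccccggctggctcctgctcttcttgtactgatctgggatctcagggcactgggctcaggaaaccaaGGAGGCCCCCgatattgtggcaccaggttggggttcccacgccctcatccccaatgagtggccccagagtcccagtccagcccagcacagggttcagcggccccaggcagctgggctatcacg
Hilpda, chr6:29272573-29272597, plus strand: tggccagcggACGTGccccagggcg
The capitals in the first line are an NF-kB motif that begins 131 bases before the start. In the Plin2 line they are a match to AGGTCA, read on the other strand, at 218 bases and an NF-kB motif, also on the other strand, at 123 bases. The ACGTG of the third line begins 43 bases before its start. Among 32851 promoter windows of the same length, 16.6% held ACGTG, 14% AGGTCA, 6.75% the AP-1 motif and 7.25% the NF-kB motif. The window before that second Hilpda start also held an AP-1 motif, at 128 bases. The promoter table held 8 of the 10 genes. Of the others, Pnpla2 had an NF-kB motif at 163 bases, Abhd5 had AGGTCA at 69 bases, Mgll and Nceh1 had ACGTG, and the windows of Soat1 and Plin3 held none of these letters. These matches describe letters, and binding was not measured.

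The general shift on these arrays matters for small changes. In limma with Benjamini-Hochberg adjustment over all genes, 70.6% of the 13182 genes were called at an adjusted p under 0.05 (24.5% higher, 46.1% lower), and the median log2 change was -0.17. Of the 10 members, 3 were called higher and 7 lower, with a median of -0.30. The 3 higher were Dgat2, Hilpda and, by its brightest probe, Abhd5. Another Abhd5 probe fell, as given below. At 2-fold or more, 6.79% of all genes were called higher and 12.6% lower, against Dgat2 and Hilpda higher and Plin2 lower among the members. Treated and untreated levels did not overlap for 75.6% of all genes and for 9 of the 10 members. By its brightest probe, each of the 10 had the same sign on the 3 arrays, and the share of all genes that did so was not counted. With the median of the tested genes set to 0 on every array, the same 3 members were called higher and 3 were called lower (Plin2, Mgll and Nceh1). Of all 13182 genes, 4640 were called higher and 4838 lower in that setting.

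**Figure D1:**
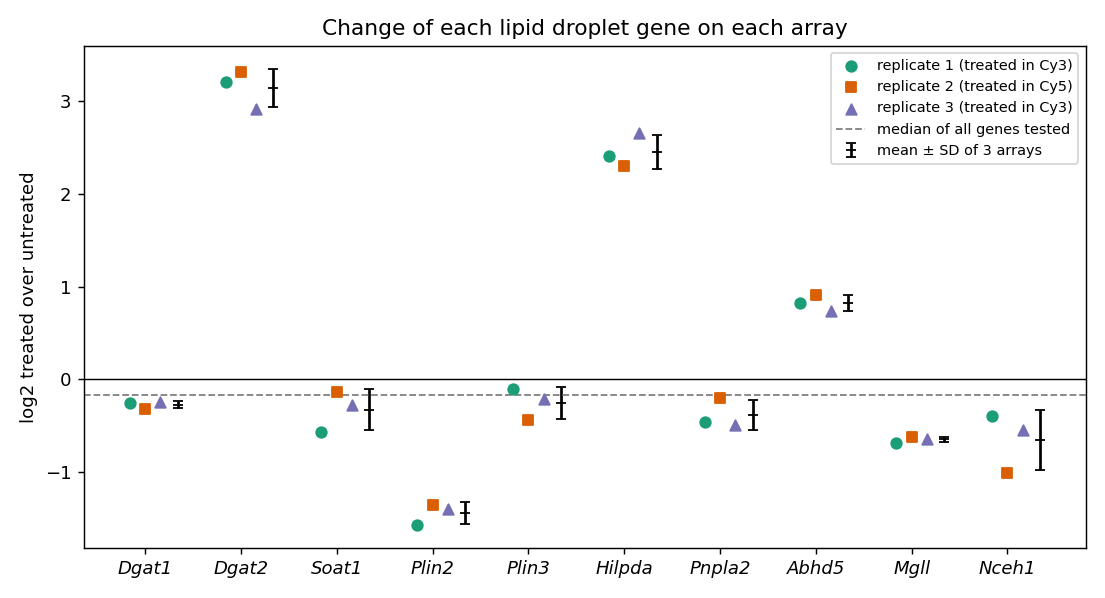
Log2 ratio of treated over untreated (y axis) for each gene's brightest probe on each of the 3 arrays, with the mean ± SD and, dashed, the median of all genes tested (-0.17). Dgat2 and Hilpda lie above 2 on all arrays and Plin2 below -1, while Dgat1, Soat1, Plin3 and Pnpla2 lie near the dashed line.

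Of the enzymes that esterify lipid, the triglyceride enzyme gene Dgat2 rose while its counterpart Dgat1 did not. The normalised log2 intensity of Dgat2 was 7.98, 7.92 and 8.08 in untreated cells and 11.19, 11.24 and 11.00 in treated cells of replicates 1, 2 and 3. The groups lay far apart, and the ratios were 3.21, 3.32 and 2.92. The mean was 3.15 ± 0.21 on the log2 scale (SD, n = 3), or 8.86-fold (moderated SE 0.099, limma adjusted p = 8.36e-08), and 99.4% of the tested genes changed by less or fell. Dgat1 was at 8.92, 9.01 and 8.94 untreated and at 8.66, 8.69 and 8.69 treated. Its levels did not overlap, but the difference of -0.27 ± 0.041 (SD, n = 3) was small. It was called (limma adjusted p = 0.0145), but relative to the median gene of each array it was at -0.10 and not called (adjusted p = 0.297). It did not pass when replicate 1 (0.0705) or replicate 3 (0.0510) was left out or in the authors' deposited table (0.0528), and lost its call in 8 of 18 alternatives. Per array, the change of Dgat2 exceeded that of Dgat1 by 3.46, 3.63 and 3.16, a mean of 3.42 ± 0.24 (SD, n = 3). An exact sign-flip permutation test over 3 arrays cannot go below a two-sided p of 0.25, the value it gave here (0.3125 after adjustment over 5 pairs of members).

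Soat1, the cholesterol-esterifying enzyme of macrophages, changed little. Its levels were 9.28, 9.17 and 9.48 untreated and 8.71, 9.04 and 9.21 treated, and it was the 1 member whose groups overlapped. The ratios of -0.57, -0.14 and -0.27 gave a mean of -0.33 ± 0.22 (SD, n = 3). That change was called (limma adjusted p = 0.0186), but not without replicate 1 (-0.20, adjusted p = 0.182) nor relative to the median gene (-0.16, adjusted p = 0.188).

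The droplet proteins diverged. Hilpda, which encodes a small droplet protein that inhibits ATGL and is a known hypoxia-inducible gene, was at 12.39, 12.35 and 12.19 in untreated cells and at 14.79, 14.65 and 14.85 in treated cells. Every treated sample was above every untreated one, with ratios of 2.41, 2.30 and 2.66. The mean was 2.46 ± 0.18 (SD, n = 3), or 5.49-fold (limma adjusted p = 2.23e-07). A second Hilpda probe gave 2.28, 2.29 and 2.63, a mean of 2.40 ± 0.20, so that its change differed from that of the brightest probe by 0.056 ± 0.063 (SD, n = 3). The 2 probes thus gave the same size of change within the spread between arrays.

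Plin2, the main droplet coat gene of macrophages, fell. Its normalised log2 intensity was 15.96, 16.03 and 15.91 in untreated cells and 14.39, 14.68 and 14.50 in treated cells. The treated samples were the low ones on every array, with ratios of -1.57, -1.35 and -1.40. The mean was -1.44 ± 0.11 (SD, n = 3), which is 2.72-fold lower (limma adjusted p = 1.71e-06), and 4.88% of the tested genes had a lower value. Plin3, a coat protein that also binds newly formed droplets, was at 13.61, 13.71 and 13.63 untreated and at 13.50, 13.27 and 13.42 treated. Its groups did not overlap, but its mean of -0.25 ± 0.17 (SD, n = 3; limma adjusted p = 0.0375) was close to the median of all genes. It did not pass when replicate 2 (adjusted p = 0.146) or replicate 3 (0.0903) was left out, nor relative to the median gene (-0.08, adjusted p = 0.457). Plin3 lost its call in 10 of 18 alternatives, among them the authors' deposited table (limma adjusted p = 0.0755). The change of Plin2 was below that of Plin3 on all 3 arrays, by -1.19 ± 0.28 on average (SD, n = 3; exact sign-flip p = 0.25, the smallest possible, and 0.3125 adjusted over the 5 pairs).

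**Figure D2:**
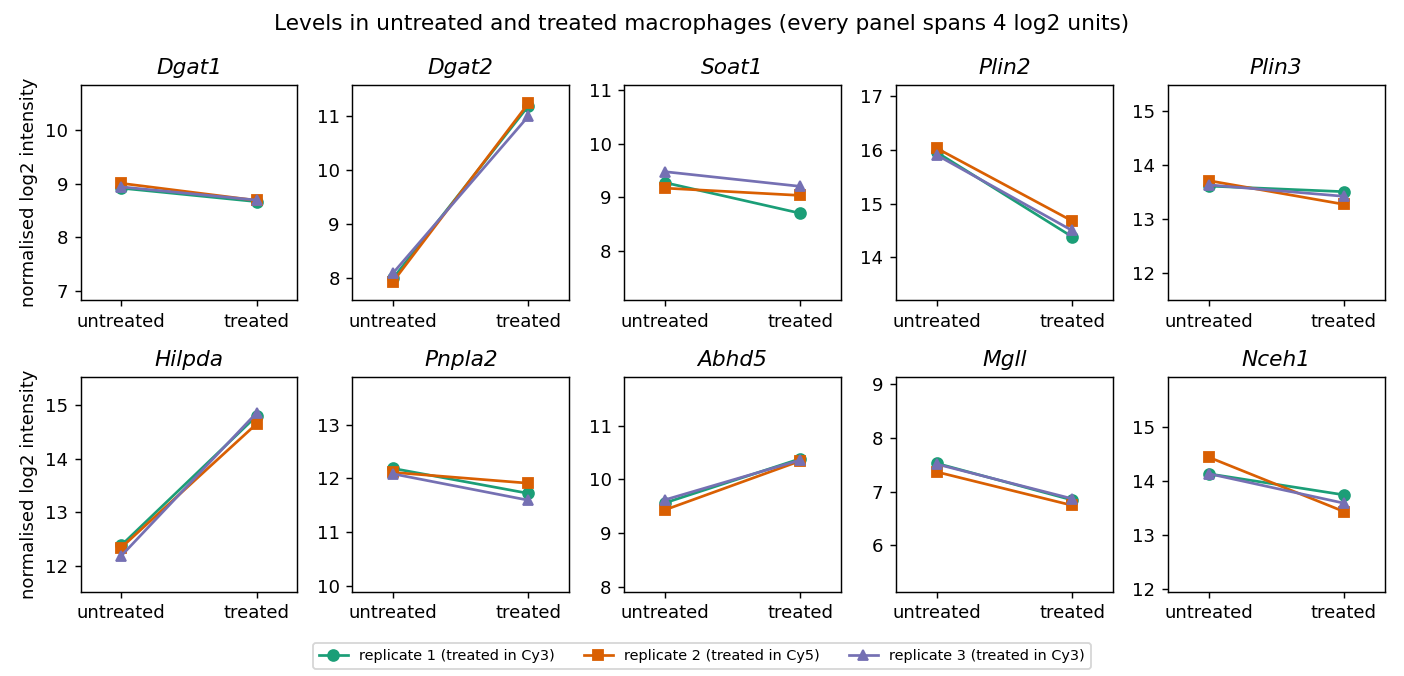
Normalised log2 intensity (y axis) in untreated and treated cells for each gene, 1 line per array, with 4 log2 units in every panel so that slopes can be compared. Levels of different genes come from different probes and are not comparable. The lines of Dgat2 and Hilpda rise, that of Plin2 falls, and the groups of Soat1 overlap.

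Among the lipolysis genes, the triglyceride lipase gene Pnpla2 fell slightly. It was at 12.19, 12.11 and 12.08 untreated and at 11.72, 11.91 and 11.60 treated. The groups did not overlap, and the mean was -0.38 ± 0.16 (SD, n = 3; limma adjusted p = 0.0050). Relative to the median gene it was at -0.21 and not called (adjusted p = 0.0537). Set against this lipase, the change of its inhibitor Hilpda was higher by 2.87, 2.50 and 3.15 per array, a mean of 2.84 ± 0.32 (SD, n = 3; exact sign-flip p = 0.25, and 0.3125 adjusted over the 5 pairs). The comparison with its coactivator Abhd5 depended on the probe. By the brightest Abhd5 probe the change was above that of Pnpla2 on all 3 arrays, and by probe A_51_P407165 it was below on all 3. The mean difference for the brightest was 1.21 ± 0.089 (SD, n = 3; exact sign-flip p = 0.25, and 0.3125 adjusted over the 5 pairs), or 0.60 when the probes of a gene were averaged.

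The 3 probes of Abhd5, which encodes the coactivator of ATGL, disagreed in direction. The brightest probe (A_55_P2177233) was at 9.56, 9.43 and 9.62 untreated and at 10.39, 10.35 and 10.36 treated. Its mean ratio was 0.82 ± 0.086 (SD, n = 3), or 1.77-fold (limma adjusted p = 3.34e-05), and a second probe (A_52_P273821) gave 0.73 ± 0.24. The remaining probe (A_51_P407165) went the other way, at 9.15, 9.01 and 8.99 untreated and 8.21, 8.18 and 8.01 treated. Its mean was -0.92 ± 0.082 (SD, n = 3). In a limma fit over all 28963 measured probes, the first pair was called higher (adjusted p = 4.40e-05 and 0.000368) and the third lower (adjusted p = 2.36e-05). The gap between the brightest and the opposing probe was 1.77, 1.74 and 1.72 on the 3 arrays. That gap varied less between arrays (SD 0.023) than any single ratio of these probes did. All 3 probes carry the same RefSeq accession in the array design, and the table used for names lists 4 transcripts for the gene. The mean over probes was 0.21 (limma adjusted p = 0.0429), and the brightest probe was at -0.34 where loess was replaced by median centring. A direction for Abhd5 as a gene is therefore not given.

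Mgll, the monoglyceride lipase gene, was dim and lower in treated cells. Its brightest probe was at 7.53, 7.37 and 7.51 untreated and at 6.84, 6.74 and 6.87 treated, with no overlap between the groups. The mean was -0.65 ± 0.031 (SD, n = 3), or 1.57-fold lower (limma adjusted p = 0.000111). Of its other 3 probes, those with readings near background gave -0.30 ± 0.11 and -0.19 ± 0.11, and 1 was not well above background in any of 6 readings. The former pair were well above background in 1 treated and 3 untreated readings. In the limma fit over all measured probes, the one at -0.30 was called lower (adjusted p = 0.0123) and the one at -0.19 was not (0.0762). The size of the change varied with the setting. It was -1.11 with a normexp offset of 0, -1.16 with median centring, -1.22 in the scanner software's log ratio and -0.38 as the mean over measured probes.

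Nceh1, the neutral cholesterol ester hydrolase gene, was lower too. It was at 14.14, 14.45 and 14.14 untreated and at 13.75, 13.44 and 13.59 treated. The groups did not overlap, and replicate 2 had the largest difference, with ratios of -0.39, -1.01 and -0.55. The mean was -0.65 ± 0.32 (SD, n = 3; limma adjusted p = 0.00134), and -0.47 without replicate 2 (adjusted p = 0.00235). Replicate 2 is the array with the dyes swapped, and the dye coefficient of Nceh1 was -0.27 (limma adjusted p = 0.258). The dye coefficient passed for 47 of the 13182 genes and for none of the 10 members. That fit sets 1 array against 2, so it cannot settle whether a dye effect is present. With the dye term, the change of Nceh1 was -0.74 ± 0.079 (moderated SE). Soat1 and Nceh1, which make and cut cholesterol ester, differed in log2 change by -0.18, 0.88 and 0.28 per array, so that the sign of the difference varied (0.32 ± 0.53, SD, n = 3; exact sign-flip p = 0.5, also after adjustment over the 5 pairs).

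**Figure D3:**
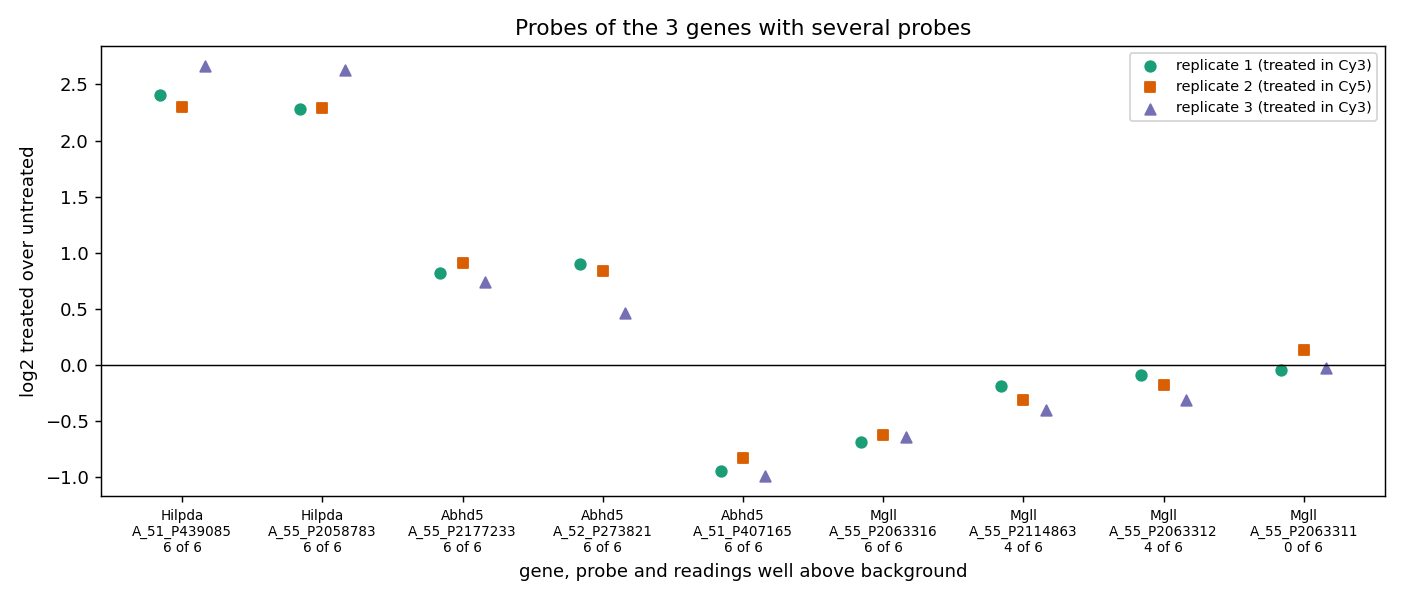
Log2 ratio of treated over untreated (y axis) on each of the 3 arrays for every probe of Hilpda, Abhd5 and Mgll, the members with several probes, with the number of 6 readings well above background under each. The 2 Hilpda probes lie together above 2, and the third Abhd5 probe lies near -0.92 while the others lie above 0.4.

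The wider pathway was described with 5 lists of genes, from which the 10 members were left out, and the 4 called genes with the largest change were named for each. Of 64 measured genes in the lists, 14 rose and 38 fell (21.9% and 59.4%, against 24.5% and 46.1% of all genes), with a median log2 change of -0.40. Relative to the median gene, 17 of the 64 rose and 30 fell, against 4640 and 4838 of all 13182 genes. Among 13 measured genes of fatty acid supply and activation, 4 rose and 7 fell, with a median of -0.26 (5 and 5 relative to the median gene). Fabp3, a fatty acid-binding protein gene, rose by 2.51 ± 0.091 (moderated SE, n = 3 arrays; limma adjusted p = 1.69e-07), and its second probe gave 2.55. Acsl1, which activates fatty acids to acyl-CoA, rose by 1.81 ± 0.11, with 2.28 for its other probe. Its relative Acsl4, which prefers arachidonic acid, was at -1.28 ± 0.090, and the lipoprotein lipase gene Lpl was at -2.43 ± 0.10, or -1.36 with a dimmer probe. So the genes for activating enzymes did not move as 1 group.

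The steps that lead to diacylglycerol also went both ways. Of 17 measured genes of glycerolipid synthesis upstream of DGAT, 6 rose and 8 fell (35.3% and 47.1%, against 24.5% and 46.1% of all genes). Their median was -0.16 (7 rose and 7 fell relative to the median gene, against 4640 and 4838 of all 13182 genes). Gpat3 and Gpd1 count among those that fell but passed the filter through untreated cells alone, and among the 14 genes well above background in all 6 readings 6 rose and 5 fell, with a median of 0.007. Plpp1, a lipid phosphate phosphatase gene, rose by 2.99 ± 0.11 (moderated SE, n = 3 arrays; limma adjusted p = 1.63e-07), though another probe gave 1.19. Gk, glycerol kinase, which makes the glycerol phosphate backbone, rose by 2.20 ± 0.092, with ratios of 2.00, 2.28 and 2.31. Plpp2 of the same phosphatase family was at -1.52 ± 0.094, and Agpat2, an acyltransferase of the second step, at -1.16 ± 0.12.

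None of the 10 measured genes of droplet coat and assembly rose and 7 fell in limma (the same counts at an unadjusted p under 0.05), with a median of -0.40. Of all 13182 genes, 24.5% rose and 46.1% fell. Hsd17b13 passed the filter through untreated cells alone, and of the 8 genes well above background in all 6 readings 6 fell. Without replicate 2, 1 gene rose and 7 fell. Relative to the median gene, 1 rose and 5 fell, against 4640 and 4838 of all 13182 genes. Hsd17b11, which encodes a droplet-associated dehydrogenase, was at -1.40 ± 0.10 (moderated SE, n = 3 arrays; limma adjusted p = 5.01e-06). Bscl2, which encodes seipin, the protein that shapes forming droplets, was at -1.32 ± 0.083. Ldah, a droplet-associated hydrolase gene, was at -1.23 ± 0.10, with -0.80 for its other probe. Rab18, a droplet GTPase gene, was at -0.45 ± 0.12 with only -0.073 on replicate 2. Rab18 did not pass without replicate 1 (limma adjusted p = 0.0552) or replicate 3 (0.0780), with a normexp offset of 0 (0.0555) or in the scanner software's ratio (0.0547), and lost its call in 6 of 18 alternatives. The fat cell coat gene Plin1 was not well above background in any reading, and Plin4 was at 0.02 ± 0.084 and did not pass.

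Of 16 measured other genes of lipolysis and lipophagy, 4 rose and 8 fell (25% and 50%, against 24.5% and 46.1% of all genes). The list median was -0.31 (4 rose and 7 fell relative to the median gene, against 4640 and 4838 of all 13182 genes). Among the 14 well above background in all 6 readings, 3 rose and 8 fell, with a median of -0.61, and without replicate 1 or 3 only 2 of the 16 rose. The nuclear receptor gene Pparg, a regulator of lipid storage genes, was at -2.18 ± 0.10 (moderated SE, n = 3 arrays; limma adjusted p = 4.96e-07). The lysophospholipase genes Pnpla7 and Abhd12 were at -1.90 ± 0.084 and -1.27 ± 0.12. Lipa, the lysosomal acid lipase that digests lipid delivered to lysosomes, was at -1.0 ± 0.12. G0s2, whose product is another inhibitor of ATGL, was at -0.20 ± 0.080 and did not pass (limma adjusted p = 0.0562). Its probe was dim, with log2 levels of 6.75 to 6.89 untreated and 6.61 to 6.66 treated. The hormone-sensitive lipase gene Lipe was at -0.14 ± 0.093 (limma adjusted p = 0.197). G0s2 and Lipe were named after their values were seen.

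The cholesterol ester list had the lowest median of the 5 lists, at -0.94. All 9 of its measured genes fell and none rose (0 at an unadjusted p under 0.05 as well), and 7 fell relative to the median gene. Of all 13182 genes, 46.1% fell, and 4838 genes fell relative to the median gene. With the mean over measured probes 7 fell as well, and other probes of Stard4 and Osbp, a sterol carrier gene and an oxysterol-binding protein gene, were at 0.14 and 0.27, against -0.42 and -0.22 for the brightest. Leaving out replicate 1 or 3 also gave 7. Soat2, the second cholesterol-esterifying enzyme gene, was at -1.84 ± 0.081 (moderated SE, n = 3 arrays; limma adjusted p = 3.85e-07), with ratios of -1.78, -1.89 and -1.86. The sterol exporter genes Abca1 and Abcg1 were at -1.48 ± 0.090 and -1.02 ± 0.13, and Lipa belongs to this list as well. Of all called genes in the lists, Gpat3, Gpd1 and Hsd17b13 were not well above background in treated cells on any array and Aqp9 in untreated cells, so that their changes are bounds: at least 2.14-fold, 1.31-fold and 1.33-fold lower and at least 1.26-fold higher.

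**Figure D4:**
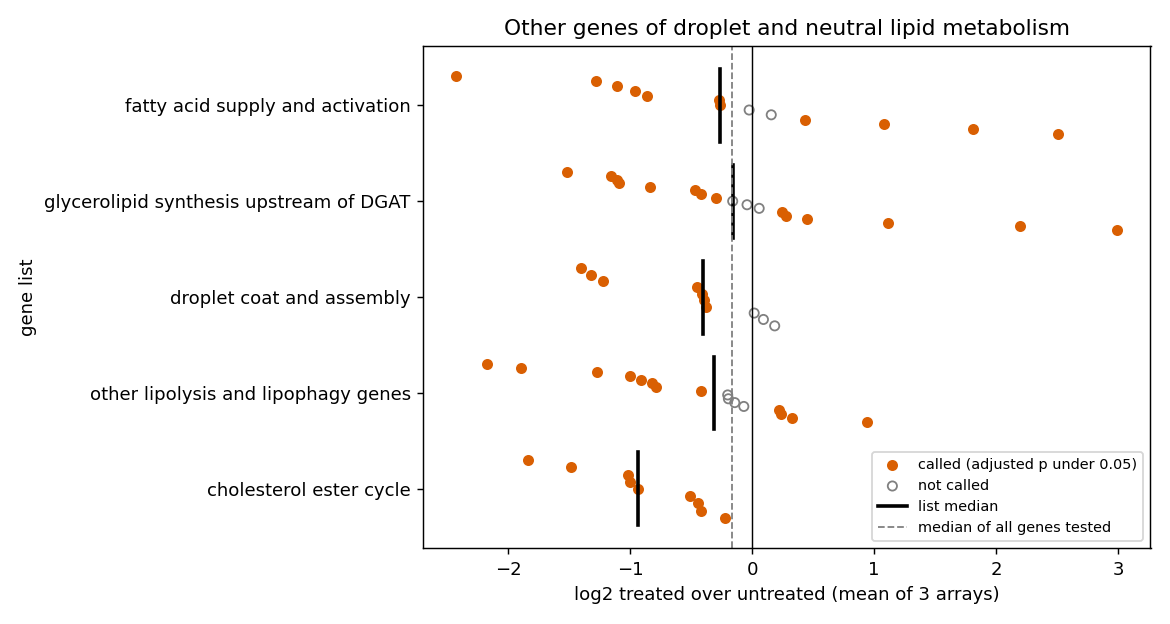
Log2 change of treated over untreated (x axis, mean of 3 arrays) of each measured gene in the 5 lists, filled where limma called it, with the list median as a bar and the median of all genes (-0.17) dashed. Genes of the cholesterol ester cycle all lie below 0, while fatty acid supply and glycerolipid synthesis spread to both sides.

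The arrays were checked against markers of macrophages and of other cells. All 9 measured macrophage markers were well above background in all 6 readings. Of these, 8 fell and 1, Cd14, rose, with a median of -1.70, and their summed level was 17.4 to 17.7 (log2) in treated and 18.4 to 18.6 in untreated cells. Of 10 fat cell markers, 3 were well above background in all readings (Adrb3, Lipe and Retn) and 5 in none, among them Adipoq and Plin1. Retn rose by 0.64 (limma adjusted p = 0.000188), with 0.60 for its other probe, while Adrb3 and Lipe were not called. The summed level of the fat cell markers was 9.70 to 9.73 treated and 9.66 to 9.69 untreated. That sum takes in all 10 probes, of which only 3 passed the filter, so background signal is part of it. Other markers, with the number measured, were called as follows: 3 of 5 for fibroblasts rose, 3 of 7 for neutrophils rose and 3 fell, 2 of 4 for T cells rose, 1 of 4 for B cells rose and 2 fell, and 1 of 4 for dendritic cells rose. For each of these cell types, the shares of all 13182 genes to set beside the counts are 24.5% higher and 46.1% lower. In bulk RNA, fewer cells of a type and less RNA per cell cannot be told apart. The part of these marker changes in the results on lipid genes was not tested.

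The directions of the largest changes held across the processing settings that were run. Dgat2 was between 2.01 and 3.65 and called in 17 of 18 alternatives, Hilpda between 1.36 and 2.63 and called in 17 of 18, and Plin2 between -2.46 and -1.27 and called in 17 of 18. The exception was the replacement of loess by median centring, by which the median of all genes moved to -1.03 and called 0 genes in limma (214 higher and 5099 lower at an unadjusted p under 0.05). Under it Dgat2 was at 2.01 (adjusted p = 0.0778), Hilpda at 1.36 (0.144) and Plin2 at -2.46 (0.0840).

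**Figure D5:**
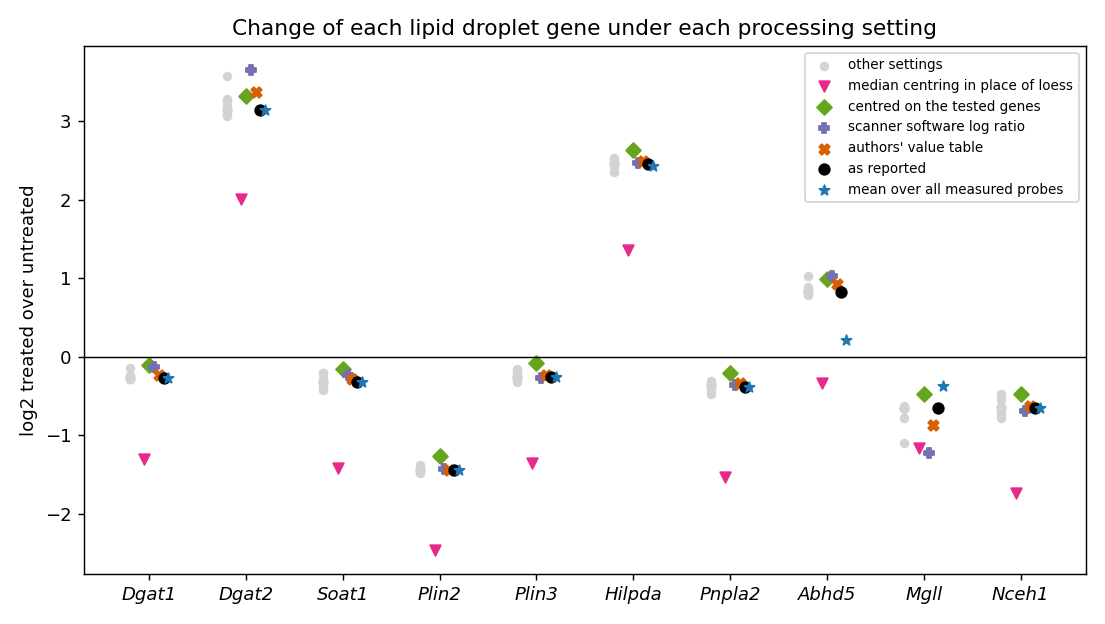
Log2 change (y axis) of each gene as reported and under each of 18 processing alternatives, with median centring, centring on the tested genes, the scanner software's ratio, the authors' table and the mean over probes marked apart. Median centring gives the lowest value of most genes, and only Abhd5 crosses 0 in the settings shown.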

How the data were processed

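Total RNA was labelled in 2 colours and hybridised to 3 Agilent arrays that shared 1 slide and 1 scan time. Per the submitters' processing notes, Agilent Feature Extraction 10.7.3.1 was used. The intensity columns used here hold, per the file headers, the unnormalized median pixel values of each spot and its local background. The scanner software's log10 ratio, also deposited, sets processed Cy5 over Cy3 signal. The authors' deposited log2 table has no stated processing. It correlated at r = 0.994, 0.990 and 0.992 with loess ratios turned to treated over untreated, and its medians were -0.0024, -0.0097 and -0.0058; its background handling stays unknown.

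Intensities were corrected with normexp (offset 50) and normalized with loess in limma 3.58.1 (R 4.3.3), with control spots at weight 0. Outlier spots (323, 303 and 299 on the arrays) were left out, and no spot was saturated. Levels per channel are log2 values after Aquantile normalization. A probe was kept when well above background in at least 3 of 6 readings, and the brightest represented a gene. Of 55681 probes, 27235 matched a RefSeq symbol (GRCm38.p6, symbols alone). Well above background were 43.9% to 47.5% of probes in treated and 53.4% to 54.3% in untreated channels. The ratios were tested against 0 with lmFit and eBayes, without a dye term, since 1 array was swapped against 2, and SEs are moderated. Ratios of 2 arrays correlated at r = 0.943 to 0.968 across genes, which are not independent replicates. P-values measure the spread between these 3 arrays. A bound takes, for the dim group, the higher per array of the lowest signal well above background and the probe's own. The fit was tested on simulated data. The treatment dose follows the treatment text; the extraction text gives another unit.

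The 10 members were all named, and of each list the 4 called genes with the largest change. Plin1, Plin4, G0s2, Lipe, Stard4, Osbp, Pcyt1a, Gpat3, Gpd1, Hsd17b13 and Aqp9 were named outside that rule. Members, lists and tests were chosen with earlier results of these data known. Alternatives changed background, signal, centring, filter, probe rule, model, weights, threshold and replicates; a fit over all measured probes, and the alternatives for named list genes, were chosen after seeing the data.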

Additional observations from a re-analysis of the deposited data

How the results depend on the processing

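The reported fit is itself paired, since each ratio sets the treated against the untreated RNA of 1 array, and no further block was added. The members called higher include Abhd5, whose probes disagreed. Of 18 alternatives, the count of members called higher stayed at 3 in 16, was 2 when a log2 change of 1 was required and was 0 with median centring in place of loess. That setting also called 0 members lower, and 0 and 0 genes of the 5 lists in limma (at an unadjusted p under 0.05, 1 member higher and 5 lower, and 1 list gene higher and 27 lower); Abhd5 turned to -0.34 under it. Members called lower numbered 4 with a normexp offset of 0, 4 in the scanner software's log ratio, 3 relative to the median tested gene and 1 when a log2 change of 1 was required, against 7. They numbered 5 in the authors' deposited table, 6 without background correction and 6 with array weights. Leaving out 1 replicate gave 5 to 6. The calls lost in these settings were among Dgat1, Soat1, Plin3, Pnpla2, and, with the required change, Mgll and Nceh1. Requiring a log2 change of 1 left 4 list genes higher and 8 lower. The excess of Dgat2 over Dgat1 was 3.72 with an offset of 0 and 3.79 in the scanner's ratio. That of Abhd5 over Pnpla2 was 1.33, 1.39 and, over the mean of probes, 0.60. The cause of these changes was not tested. Centring on the tested genes changed the split of all calls from 3226 higher and 6079 lower to 4640 and 4838. Precision is limited by the use of 3 arrays, and the size for the dim gene Mgll varied between settings.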

Other observations

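Among the list genes, Pcyt1a, which encodes the rate-limiting enzyme of phosphatidylcholine synthesis and binds growing droplets, had ratios of 0.45 and 0.40 on the arrays with the treated RNA in Cy3 and -0.30 on the array with it in Cy5. Its mean of 0.18 ± 0.14 (moderated SE, n = 3 arrays) did not pass (limma adjusted p = 0.278).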
